A study of Rattus norvegicus with 9 samples.

Results

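The data concern 6 genes of cellular sodium handling in the rat left ventricle after myocardial infarction (MI), chosen because they are, or work beside, transporters that dapagliflozin (DAPA) could act on in the heart. They are Slc5a2 (ENSRNOG00000020039) and Slc5a1 (ENSRNOG00000017775), the sodium pump genes Atp1b1 (ENSRNOG00000002934) and Fxyd1 (ENSRNOG00000021079), Slc4a4 (ENSRNOG00000003134) and Slc12a2 (ENSRNOG00000015971). Each was found by its name in the deposited table, which lists 35843 genes, and all 6 names were present once. Another 81 genes of the same transport systems were read beside them.

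Total RNA from hearts of adult male Sprague-Dawley rats was selected with poly-T beads and sequenced at day 28, with 3 rats in each of 3 groups. Group Sham was operated without ligation of the coronary artery and received saline by gavage, group MI had the left anterior descending artery tied permanently and received saline, and group MI + DAPA (1st d), called the DAPA group below, had the same ligation and received dapagliflozin by daily gavage from the first day. The comparisons are written MI vs. Sham, DAPA vs. MI and DAPA vs. Sham, the first-named group over the second. No group of sham-operated rats on dapagliflozin was analysed here, so every rat given the drug also carried an infarct. The RNA came from left ventricle, called infarct myocardium by the study in the ligated groups, and its molecular work used mainly the border of the infarct. The tissue is a mixture of cell types in which fewer cells of a type and less RNA per cell cannot be told apart.

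Sodium enters heart cells through exchangers, cotransporters and channels, and the sodium pump, an ATPase made of an alpha and a beta subunit with a small FXYD protein beside them, moves it out again in exchange for potassium. The sodium gradient that results drives the export of calcium and of acid. Dapagliflozin was developed as a blocker of SGLT2, the product of Slc5a2, which reabsorbs glucose with sodium in the kidney tubule.

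The values are FPKM, fragments per kilobase of gene scaled to library size, so levels of different genes can be set side by side. Whole reads could be recovered from them, between 13597239 and 17210909 per rat. Of these, the 13 protein genes of the mitochondrial genome took 59.9% to 65.7% in group Sham, 6.93% to 18.7% in group MI and 17.1% to 31.6% in the DAPA group, which left as few as 5899666 reads on other genes in a Sham rat and up to 13222454 in an MI rat. The deposited values do not follow the total reads, since the divisor per read differed up to 2.10-fold from that of Sham replicate 1. Of 15 cardiomyocyte markers 13 were found in the table and none of these was at 0 in all rats, in tissue labelled heart, with a summed level of 6848 to 10160 FPKM in group Sham, 1774 to 8472 in group MI and 6790 to 14560 in the DAPA group. MI replicate 2 had the lowest of these sums and the highest sum of 8 lymphocyte markers, 3033 FPKM, whereas the lowest in group MI was 36.5. Sham replicate 2 had the highest sum of red cell markers, 5782 FPKM.

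The transcripts of the SGLT proteins themselves were at or near the lower end of what was measured. Slc5a1, which encodes SGLT1, the glucose cotransporter of the gut and of the late proximal tubule of the kidney, was listed at 0 in all 9 rats. That entry is not a measured absence, because 12588 genes were listed at 0 in every rat and among them is Cldn5, a tight junction gene that endothelial cells use. Slc5a2 was listed at 0.878, 0.651 and 1.19 FPKM in group Sham, at 0.151, 0.213 and 0.458 in group MI and at 0.152, 0.286 and 0.185 in the DAPA group. All 3 Sham rats were above all 6 ligated rats, and the 2 ligated groups overlapped.

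These Slc5a2 values rest on 22, 16 and 25 reads in the Sham rats, on 7, 9 and 21 in the MI rats and on 6, 11 and 8 in the rats given dapagliflozin. With 63 reads in group Sham against 37 in group MI and a lower divisor in group Sham, the pooled level in group MI was 0.272 times that in group Sham (95% exact interval 0.176 to 0.415, counting error only, as for all read intervals here). Between the DAPA group and group MI the ratio was 0.786, with an interval of 0.453 to 1.34 that contains 1. The gene did not reach the minimum of 1 FPKM in at least 3 of the 6 rats of any comparison, so it is outside the main test. No share of all genes without overlap was computed at such low levels. The two-sided exact permutation test gave p = 0.1 in MI vs. Sham and in DAPA vs. Sham, the smallest value that 3 rats against 3 allow, and p = 0.7 in DAPA vs. MI. Tested by limma without the filter, the adjusted p was 0.062 in the first of these and 0.044 in the second, beside 19.6% and 12.9% of all genes called. By limma voom on the recovered reads the adjusted p was 0.0604 and 0.0553, beside 31.0% and 23.0% of all genes called, so the call in DAPA vs. Sham depends on the fit.

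In the RefSeq annotation (GRCr8) the gene overlaps Rusf1, named RGD1310127 in the table, which was at 4.82 to 8.58 FPKM in the 9 rats, and the library kit did not mark strand, so reads in the shared stretch cannot be assigned to 1 of the 2 genes. The 8 kidney tubule markers summed to 0.635 to 0.746 FPKM in group Sham, 0.230 to 0.365 in group MI and 0.221 to 0.858 in the DAPA group, with Umod and Aqp2, which define tubule segments, listed at 0 in all rats. Group Sham was thus above group MI without overlap, as for Slc5a2, and overlapped the DAPA group, and the part of these low signals in the Slc5a2 values was not tested. Among the 12 SLC5 genes that were listed, 7 were listed at 0 in all 9 rats, which as for Slc5a1 is not a measured absence, and only Slc5a6, which carries biotin and pantothenate with sodium, reached 1 FPKM in 3 or more rats.

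Slc5a6 was listed at 8.11, 10.6 and 11.4 FPKM in group Sham, at 5.14, 5.34 and 5.40 in group MI and at 5.52, 6.61 and 5.49 in the DAPA group. It fell in MI vs. Sham by 0.80 on the log2(FPKM + 1) scale (SE 0.17, limma adjusted p = 0.0103). Pdzk1, a scaffold protein that binds several transporters, was the only listed SGLT partner tested, and its log2 fold change of -0.22 in the same comparison was not called (limma adjusted p = 0.378).

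**Figure D1:**
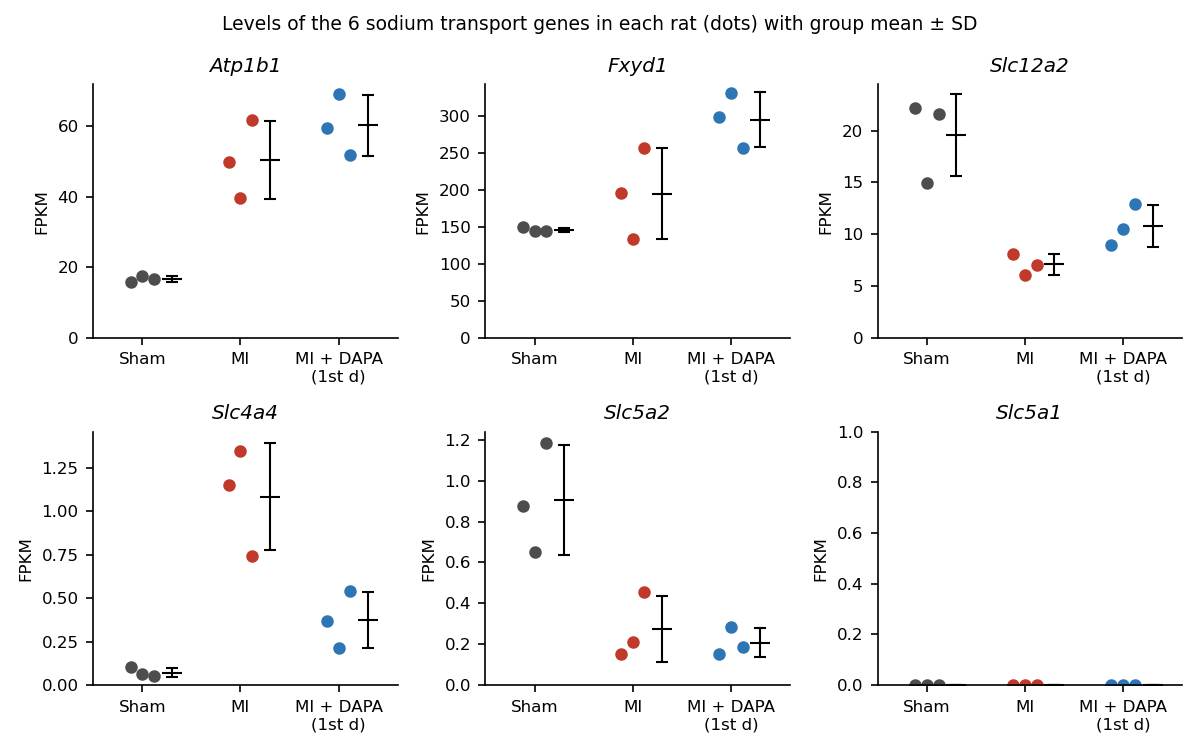
FPKM of the 6 genes in each of the 9 rats (dots, n = 3 per group) with the group mean and SD beside them, each vertical axis starting at 0. Atp1b1 lies higher and Slc12a2 and Slc5a2 lower in both ligated groups than in group Sham, Slc4a4 separates the 3 groups, Fxyd1 spreads widely in group MI, and Slc5a1 is listed at 0 throughout.

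The sodium pump was far more abundant than the cotransporters, and its beta subunit gene Atp1b1 differed most from group Sham among the 3 of the 6 genes that entered the main test. Atp1b1 encodes the beta subunit isoform that folds and delivers the alpha subunit to the membrane. It was at 15.8, 17.5 and 16.5 FPKM in group Sham, at 49.8, 39.7 and 61.7 in group MI and at 59.5, 69.1 and 51.9 in the DAPA group. Every ligated rat was above every Sham rat, and the 2 ligated groups overlapped. Mean levels were 16.6 ± 0.886 FPKM, 50.4 ± 11.0 and 60.2 ± 8.61 (SD, n = 3 each), so the level in group MI was 3.03 times that in group Sham. The log2 fold change of (FPKM + 1) was 1.52 (SE 0.18, limma adjusted p = 0.00168) in MI vs. Sham and 1.79 (SE 0.16, limma adjusted p = 0.00156) in DAPA vs. Sham. In the first of these comparisons 39.0% of the 13485 genes tested were called, and in the second 28.6% of 13359. The groups were without overlap for 54.6% and 46.5% of these genes. In DAPA vs. MI the difference was 0.26, with a 95% confidence interval of -0.21 to 0.74 (limma adjusted p = 0.643), which leaves both no difference and an increase of 0.74 possible. Atp1b1 overlaps Nme7 in the RefSeq annotation (GRCr8), a gene at 3.28 to 8.55 FPKM in these rats, and the reads of the 2 could not be told apart in the overlap.

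Fxyd1 encodes phospholemman, the FXYD protein of heart and skeletal muscle, which restrains the pump until it is phosphorylated. It was the most abundant of the 6 genes, at 149, 144 and 144 FPKM in group Sham, at 196, 133 and 256 in group MI and at 298, 331 and 256 in the DAPA group. The MI rats lay on both sides of the Sham rats, and the rats given dapagliflozin were all above the Sham rats, the lowest of them level with the highest MI rat. In DAPA vs. Sham it rose by 1.01 on the log2(FPKM + 1) scale (SE 0.17, limma adjusted p = 0.0059), to 2.02 times the Sham mean. Of the 13 cardiomyocyte markers 5 rose and 0 fell in the same comparison, beside 14.5% and 14.1% of all genes. The part of these markers in the Fxyd1 result was not tested. The difference in MI vs. Sham was 0.37 (SE 0.24, limma adjusted p = 0.259). The difference depended on single MI rats, being 0.62 and called without MI replicate 2 (limma adjusted p = 0.039) and 0.15 without MI replicate 3 (limma adjusted p = 0.625). In DAPA vs. MI the difference was 0.64 (95% confidence interval 0.00 to 1.27, limma adjusted p = 0.558), and it was 0.39 without MI replicate 2 and 0.86 without MI replicate 3.

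The other pump genes put these 2 in context. Of 15 pump genes 11 were tested in MI vs. Sham, of which 3 rose, 1 fell and 7 were not called. The 4 called make up 36.4%, beside 39.0% of all genes, with a median log2 fold change of 0.37 beside -0.01 for all genes tested. Fxyd2, the gamma subunit best known from kidney, rose by 2.28 (SE 0.41, limma adjusted p = 0.00589), from 48.1, 37.0 and 17.2 FPKM in the Sham rats to 114, 232 and 144 in the MI rats. Fxyd7, the FXYD protein best known from brain, fell by 1.71 (SE 0.23, limma adjusted p = 0.00242), with 19.7 to 23.7 FPKM in group Sham and 4.36 to 8.62 in group MI. In DAPA vs. Sham 4 of 10 rose, Fxyd1 among them, and 1 fell, beside 14.5% and 14.1% of all genes.

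The make-up of the beta subunit and FXYD transcripts was summarised after the values had been seen. Among Atp1b1, Atp1b2 and Atp1b3, Atp1b1 held 15.8% ± 3.46 of the summed FPKM in group Sham, 32.5% ± 6.31 for the MI rats and 36.6% ± 6.31 for the DAPA rats (SD, n = 3 each), and Atp1b3 remained the most abundant in every rat at 48.7% to 77.2%. The shares of Atp1b1 in either ligated group did not overlap those in group Sham (exact permutation p = 0.1, the smallest possible), and those of the 2 ligated groups overlapped. Among the 7 FXYD genes, Fxyd1 held 46.9% ± 1.70 in group Sham, 39.6% ± 11.3 for the MI rats and 55.2% ± 6.16 for the DAPA rats, and Fxyd2 10.8% ± 4.55, 33.4% ± 12.7 and 18.3% ± 4.85. The Fxyd2 shares of the 2 ligated groups were apart (exact permutation p = 0.1), with 24.2% to 47.9% in group MI and 14.2% to 23.6% in the rats given dapagliflozin. A share also depends on the other FXYD genes. The level of Fxyd2 itself overlapped, at 95.1, 75.8 and 122 FPKM in the DAPA group against 114, 232 and 144. Its log2 fold change in DAPA vs. MI was -0.70 (95% confidence interval -1.42 to 0.02, limma adjusted p = 0.558), so it was not called. The Fxyd1 share overlapped between group MI and group Sham (exact permutation p = 0.4), and the Fxyd2 share between the DAPA group and group Sham (exact permutation p = 0.2).

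**Figure D2:**
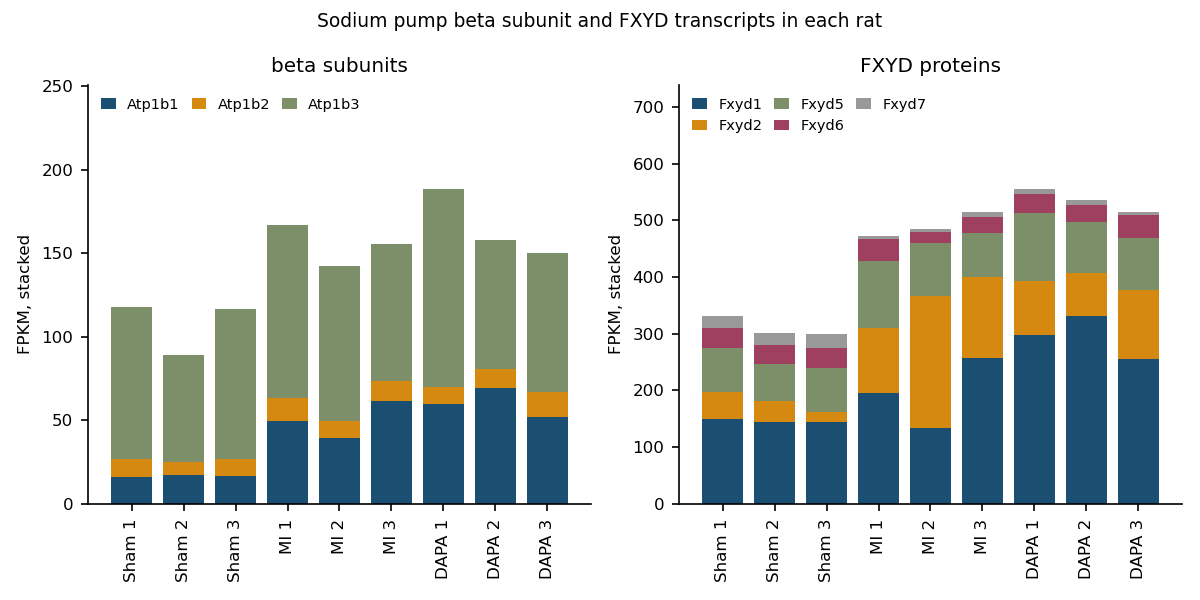
Stacked FPKM of the sodium pump beta subunit and FXYD genes in each of the 9 rats, with Fxyd3 and Fxyd4, which were near 0, left out. The bars of the ligated rats are taller than those of the Sham rats, the Atp1b1 segments are larger, and the Fxyd2 segment is largest in MI replicate 2.

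Slc12a2 encodes NKCC1, which brings sodium, potassium and chloride into cells and sets their volume and chloride. It was at 22.2, 15.0 and 21.6 FPKM in group Sham, at 8.06, 6.10 and 7.07 in group MI and at 8.97, 10.5 and 12.9 in the DAPA group. The 3 groups did not overlap, with group Sham highest, group MI lowest and the rats given dapagliflozin between them. Group means were 19.6 ± 4.0, 7.08 ± 0.978 and 10.8 ± 1.98 FPKM (SD, n = 3 each). In MI vs. Sham the gene fell by 1.34 on the log2(FPKM + 1) scale (SE 0.20, limma adjusted p = 0.00299). In DAPA vs. MI the difference was 0.54 (95% confidence interval 0.13 to 0.95), with an unadjusted p of 0.0175 and a limma adjusted p of 0.558, so it was not called. The share of all tested genes without overlap was 54.6% in MI vs. Sham and 13.8% in DAPA vs. MI.

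In DAPA vs. Sham Slc12a2 fell by 0.80 (SE 0.21, limma adjusted p = 0.0273). That call was lost without Sham replicate 1 (adjusted p = 0.0756), without Sham replicate 3 (0.0865), without DAPA replicate 1 (0.0988) and without DAPA replicate 2 (0.0631), all by limma, with differences of -0.70, -0.72, -0.68 and -0.79. It was also lost without the filter (limma adjusted p = 0.0532) and with the mitochondrial genome left out (limma adjusted p = 0.0559), where the differences were -0.80 and -0.83. The summed level of the 9 endothelial markers in the table moved with the gene. That sum was 1002 to 1231 FPKM for Sham rats, 290.0 to 382 for MI rats and 408 to 446 for DAPA rats. Cldn5 was at 0, and Vwf did not follow that order, with means of 43.1, 36.8 and 47.5 FPKM. Of the 8 markers tested, 7 fell in MI vs. Sham and 5 fell in DAPA vs. Sham. Their part in the Slc12a2 result was not tested.

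Slc4a4 encodes NBCe1, the sodium-bicarbonate cotransporter that loads heart cells with base. It was at 0.103, 0.0632 and 0.0492 FPKM in group Sham, at 1.15, 1.35 and 0.745 in group MI and at 0.367, 0.216 and 0.538 in the DAPA group. The 3 groups were again apart, but here group MI was highest and group Sham lowest. The reads behind these values were 5, 3 and 2 in the Sham rats, 103, 110 and 66 in the MI rats and 28, 16 and 45 in the rats given dapagliflozin. On pooled reads the level in group MI was 12.9 times that in group Sham (95% exact interval 6.93 to 27.3), and that in the DAPA group was 0.371 times that in group MI (95% exact interval 0.289 to 0.473). These intervals hold the counting error and not the spread between rats.

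Slc4a4 reached 1 FPKM in 2 of 9 rats and is outside the main test, so the shares of genes without overlap do not cover it. The two-sided exact permutation test gave p = 0.1, the smallest possible, in each of the 3 comparisons. In MI vs. Sham it was called by limma without the filter (adjusted p = 0.0109) and by limma voom on the recovered reads (adjusted p = 0.0114), beside 19.6% and 31.0% of all genes called. Slc4a4 had 10 reads in group Sham and met the voom minimum of 30 through group MI alone, so the voom call is a description. In DAPA vs. MI neither fit called it, with unadjusted p of 0.013 and 0.0095 and adjusted p of 0.675 and 0.608, and no gene at all was called by either. Markers of fibroblasts and macrophages moved the same way, the 10 fibroblast markers summing to 526 to 847 FPKM in group Sham, 4280 to 8278 in group MI and 2711 to 4722 in the DAPA group, and the 10 macrophage markers to 158 to 501, 1965 to 3565 and 1074 to 2006. All 10 of each list rose in MI vs. Sham, beside 19.5% of all genes. None was at 0 in all rats, and their part in the Slc4a4 result was not tested.

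The levels were next set against the cardiomyocyte markers of the same rat, by subtracting the mean log2(FPKM + 1) of the 13 markers from that of each gene. The mean is a level of RNA and not a count of cells. In MI vs. Sham 3 of the 13 markers fell and 0 rose, beside 19.5% of all genes that fell and 19.5% that rose. That marker mean was 7.43 to 8.0 in group Sham, 5.85 to 8.01 in group MI and 7.68 to 8.63 in the DAPA group, so the 3 groups overlapped and MI replicate 2 was lowest. Relative to it Atp1b1 was at -3.64 ± 0.26 in group Sham, at -1.32 ± 0.77 in group MI and at -2.29 ± 0.29 in the DAPA group (SD, n = 3 each), and both ligated groups stayed above group Sham without overlap. The difference was 2.32 in MI vs. Sham and 1.35 in DAPA vs. Sham. Fxyd1 was higher in MI vs. Sham by 1.16, again without overlap. For each of these 3 differences the exact permutation p was 0.1, the smallest possible, and the Benjamini-Hochberg adjusted value over the 15 exact permutation tests of this kind was 0.273. In DAPA vs. Sham, where its own level was called, Fxyd1 relative to the markers was 0.57 higher and the groups overlapped (exact permutation p = 0.2). In MI vs. Sham the own level of Fxyd1 differed by 0.37 and the groups overlapped. A lower marker mean raises every gene of that rat on this scale, and in the MI rats the mean was 7.08, 5.85 and 8.01. The share of all genes without overlap on this scale was not computed.

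Slc12a2 relative to the markers overlapped between group MI and group Sham, with a difference of -0.54 (exact permutation p = 0.5), whereas its own level did not. Slc4a4 was higher by 1.74 in MI vs. Sham and lower by 1.83 in DAPA vs. MI (exact permutation p = 0.1 and 0.2). Slc5a2 differed by 0.22 between group MI and group Sham (exact permutation p = 0.9) and was 1.09 lower in the DAPA group than in group Sham without overlap (exact permutation p = 0.1). At the low levels of Slc5a2 and Slc4a4 the pseudocount of 1 compresses the gene's own difference but not that of the markers, and with a pseudocount of 0.1 the Slc5a2 difference in MI vs. Sham was -0.66. None of the 5 genes was apart between the DAPA group and group MI on this scale.

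**Figure D3:**
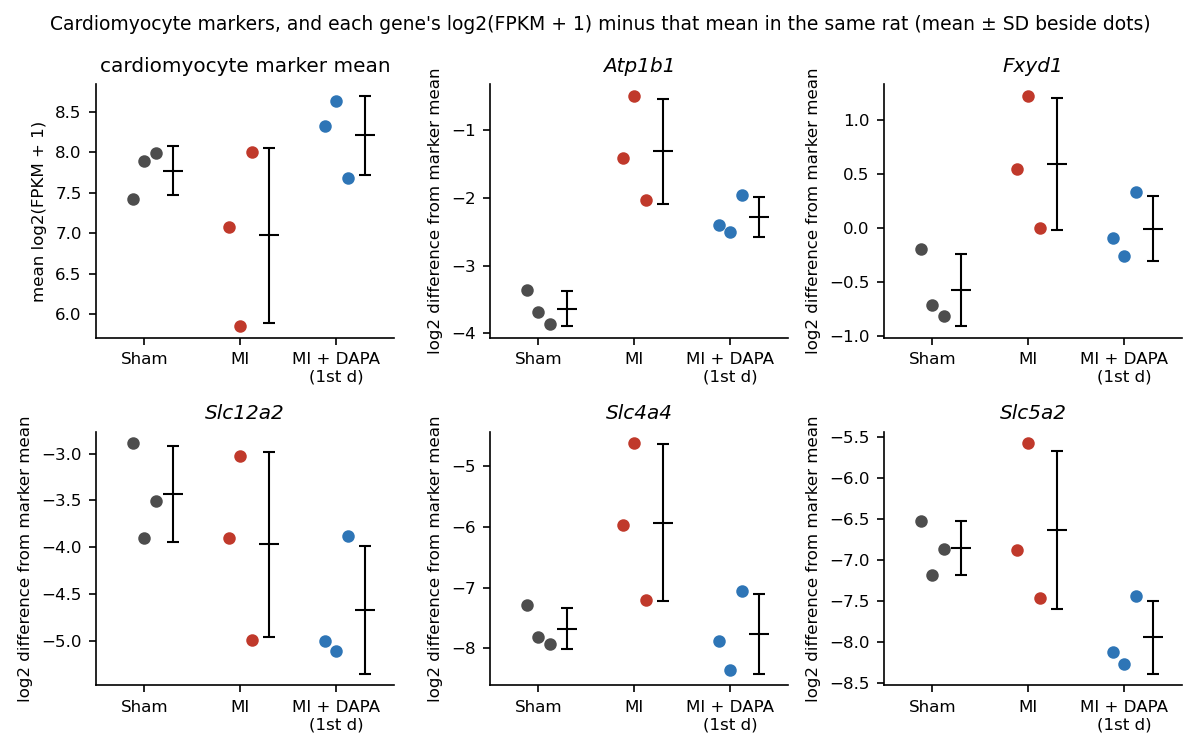
The first panel plots the mean log2(FPKM + 1) of 13 cardiomyocyte markers in each rat, and the others each gene's log2(FPKM + 1) minus that mean in the same rat (dots, n = 3 per group, with mean and SD). Atp1b1 in both ligated groups lies above group Sham, and MI replicate 2 is the highest dot for all 5 genes in group MI.

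The 6 genes included, 87 of the 91 listed sodium transport genes were in the table and 44 reached 1 FPKM in 3 or more rats. In MI vs. Sham 43 were tested, of which 9 rose, 9 fell and 25 were not called. The 18 called make up 41.9%, near the 39.0% of all genes, of which 19.5% rose and 19.5% fell. The study's own thresholds, an unadjusted p under 0.05 with a log2 fold change beyond 1 in either direction, called 13 of the 43, beside 22.4% of all genes. Rescaling all values to a sum of 1000000, which the mitochondrial genes dominate, raised the median of all genes by 1.3 and turned the count into 35 rises and 0 falls. On that scale Atp1b1 stood at 3.02, above that median, and Slc12a2 at 0.10, below it, so the sign of the Slc12a2 difference turned.

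Of the 9 genes of sodium-hydrogen exchange tested in MI vs. Sham, 4 rose and 1 fell, beside 19.5% of all genes that rose and 19.5% that fell. Slc9a9, an exchanger of endosomes, rose from 1.47 to 2.80 FPKM in the Sham rats to 6.39 to 11.2 in the MI rats, by 1.47 (SE 0.27, limma adjusted p = 0.00599). Chp1, a calcium-binding partner of sodium-hydrogen exchangers, rose by 0.74 (SE 0.15, limma adjusted p = 0.00907), and its relative Chp2 by 1.75 (SE 0.42, limma adjusted p = 0.0169). Of the scaffold proteins of these exchangers Slc9a3r1 rose by 1.15 (limma adjusted p = 0.0253) and Slc9a3r2 fell by 1.65 (limma adjusted p = 0.00752), from 232 to 311 FPKM in the Sham rats to 50.5 to 120 in the MI rats.

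The calcium exchangers use the same gradient. Slc8a1, which encodes NCX1, the main route of calcium export from heart muscle cells, was at 1.65, 1.19 and 2.26 FPKM in group Sham, at 5.71, 6.45 and 6.69 in group MI and at 4.70, 2.78 and 7.89 in the DAPA group. It rose by 1.45 in MI vs. Sham (SE 0.20, limma adjusted p = 0.00253) and by 1.11 in DAPA vs. Sham (SE 0.33, limma adjusted p = 0.0413). Slc24a3, a potassium-dependent exchanger, rose in MI vs. Sham by 0.87 (limma adjusted p = 0.0151). It was at 0.308 to 0.575 FPKM in group Sham, on 7, 5 and 8 reads, and at 1.54 to 1.68 in group MI. Slc24a3 thus passed the filter through its higher group alone, and its call is a description. Slc24a5, best known from pigment cells, fell by 1.82 (limma adjusted p = 0.00143), but it overlaps Myef2 in the annotation and the reads of the 2 cannot be told apart there. The mitochondrial exchanger Slc8b1 had a difference of 0.12 that was not called (limma adjusted p = 0.587).

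Of the Slc4 genes 4 entered the main test in MI vs. Sham, of which 2 fell, beside 19.5% of all genes. Slc4a4, which is too low for that test, is described with its own fits. Slc4a3, the chloride-bicarbonate exchanger of heart, fell by 1.69 (SE 0.35, limma adjusted p = 0.00975). Its level was 18.7 to 28.9 FPKM in the Sham rats and 3.37 to 10.1 in the MI rats. Slc4a11 fell by 0.97 (limma adjusted p = 0.00953). Slc4a11 reached 1 FPKM in the Sham rats alone and passed the filter through that group, so its call is a description. Among the cation-chloride cotransporters and the kinases that control them 2 of 9 fell (22.2%, beside 19.5% of all genes), Slc12a2 and Slc12a4, the latter a potassium-chloride cotransporter that fell by 0.70 (limma adjusted p = 0.0436). The kinase gene Wnk1 was at 16.7 to 20.8 FPKM in group Sham and 17.0 to 21.6 in group MI. Sgk1, a kinase that raises sodium uptake through ENaC, fell by 1.32 (SE 0.20, limma adjusted p = 0.00368), from 33.3, 25.6 and 43.3 FPKM in the Sham rats to 11.7, 12.7 and 14.0 in the MI rats.

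**Figure D4:**
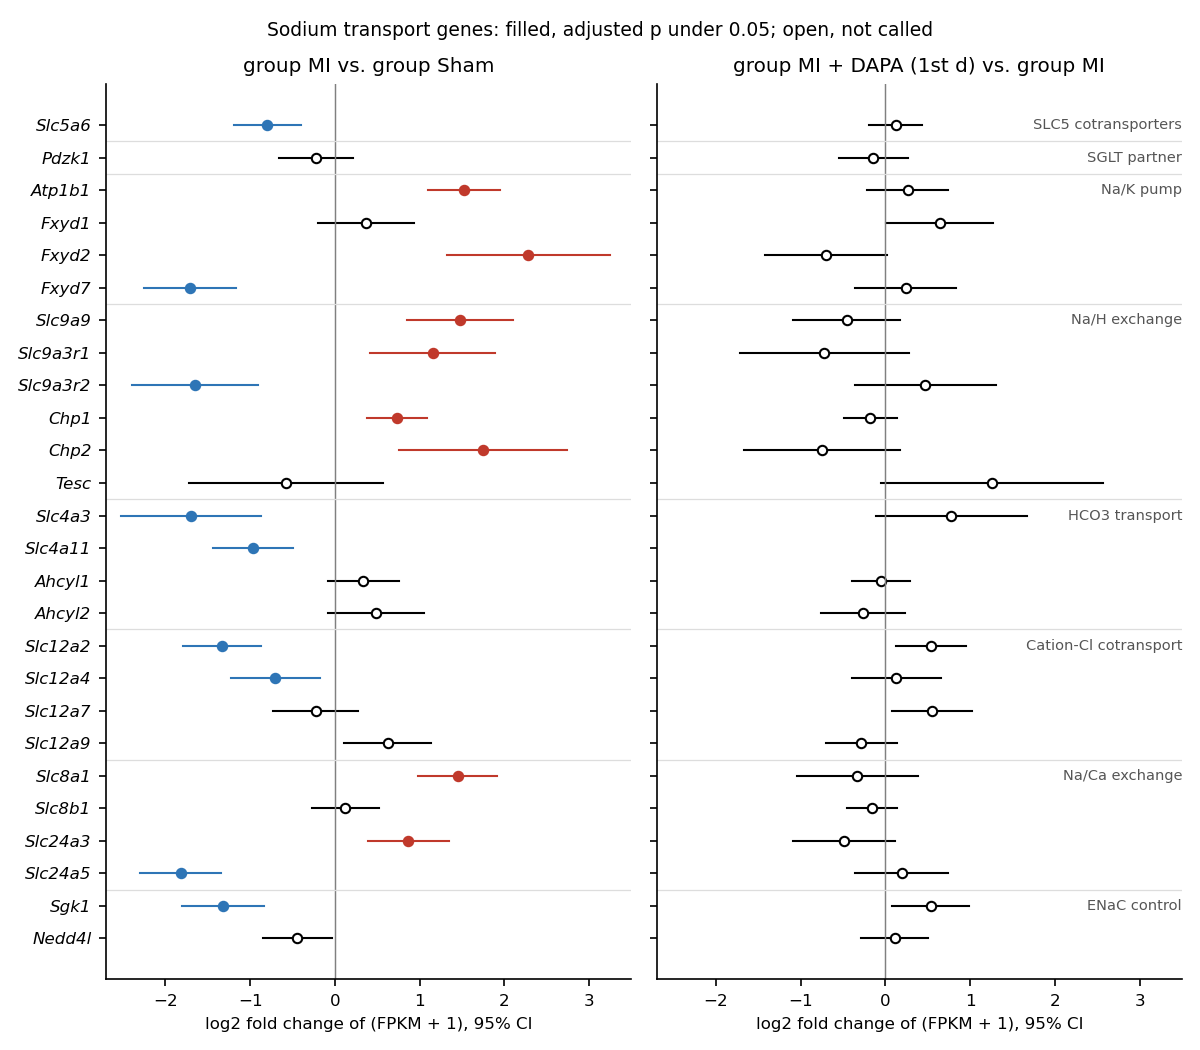
Log2 fold change of (FPKM + 1) with its 95% confidence interval for the named sodium transport genes, in MI vs. Sham (left) and DAPA vs. MI (right), n = 3 rats per group. Filled points passed an adjusted p of 0.05, open points did not, and a gene without a point was not tested in that comparison. The left panel holds rises of up to 2.28, that of Fxyd2, and every point in the right panel is open.

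The question of whether dapagliflozin moved these genes rests on DAPA vs. MI. Of 42 sodium transport genes tested 0 were called, as were 0 of all 13251 genes, a share of 0.0%, with a smallest adjusted p of 0.558 by limma. At an unadjusted p under 0.05 there were 1125 of all genes and 4 of the list, and limma voom called 0 genes as well. The study's thresholds called 0 of the 42, beside 2.06% of all genes. Those 4 were Slc12a2, Sgk1, Slc12a7 and Fxyd1. Sgk1 was at 24.2, 14.8 and 18.9 FPKM in the rats given dapagliflozin, all above the MI rats, with a difference of 0.53 (95% confidence interval 0.08 to 0.99, limma adjusted p = 0.558). Slc12a7, a potassium-chloride cotransporter, was at 22.8, 20.4 and 19.2 against 11.7, 12.1 and 18.8 FPKM, a difference of 0.55 (95% confidence interval 0.07 to 1.02, limma adjusted p = 0.558). The widest interval among the named genes was that of Tesc, another calcium-binding protein of these exchangers, at 385, 466 and 208 FPKM against 179, 61.2 and 246, where a difference of 1.26 had an interval of -0.05 to 2.57 (limma adjusted p = 0.558). Of the 42 genes 5 were without overlap between the 2 groups, beside 13.8% of all genes tested.

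In DAPA vs. Sham 40 of the list were tested, of which 8 rose and 8 fell, beside 14.5% and 14.1% of all genes. The study's thresholds called 11 of the 40, beside 17.7% of all genes. That comparison shares its Sham rats with MI vs. Sham, so the 2 are not independent. The count of 16 was 10 without Sham replicate 2, 7 without Sham replicate 3, 7 without DAPA replicate 1 and 9 without DAPA replicate 3. Fxyd2 rose by 1.58 (limma adjusted p = 0.0179) and Slc9a9 by 1.02 (limma adjusted p = 0.0275), and Fxyd7 fell by 1.47 (limma adjusted p = 0.0028).

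For the 3 of the 6 genes that reached 1 FPKM in 3 or more rats, the genes with the most similar profile over the 9 rats were found among 11545 named genes by the root mean square difference of mean-centred log2(FPKM + 1), a description without a test. Nearest to Atp1b1 were Pdha1, a subunit of pyruvate dehydrogenase (difference 0.16), Nol3, an inhibitor of cell death abundant in muscle (0.17), and Gstm2, a glutathione transferase (0.21), against a spread of Atp1b1 itself of 0.81. Pdha1 was at 17.9, 48.0 and 53.8 FPKM on average in group Sham, group MI and the DAPA group. Nearest to Fxyd1 were Grpel1, a cofactor of mitochondrial protein import (0.07), Dbi, which binds acyl-CoA (0.12), and Bola3, which helps to assemble iron-sulphur clusters (0.12), against a spread of 0.48. Nearest to Slc12a2 were Shroom4, a regulator of the actin skeleton (0.13), the ubiquitin ligase gene Rnf144a (0.14) and Mgll, the lipase of monoglycerides (0.16), against a spread of 0.58.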

How the data were processed

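RNA-seq of left ventricle from 9 rats was analysed, 3 per group. The values are FPKM as deposited by the authors, with a column for each rat and 35843 genes. The submitters' processing notes name HISAT2 2.0.5, StringTie 1.3.3b, featureCounts 1.5.0-p3 and DESeq2 with no role or order. The genome build is not given in the sources used here, so no coordinates are printed. Columns were assigned to rats by name.

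Because FPKM steps within a gene by what 1 read is worth, reads were recovered, and came out whole for 18896 of 18896 genes listed above 0 in at least 4 rats (tolerance 0.01 reads, 0.02 for deeply read genes). Intervals on reads cover counting error only, since reads carried no molecular identifiers. The precision of every comparison is limited by 3 rats per group.

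MI vs. Sham, DAPA vs. MI and DAPA vs. Sham were each fitted with limma 3.58.1 in R 4.3.3 on log2(FPKM + 1), with a trended prior, the 2 groups of the comparison and no covariate, over all genes at 1 FPKM or more in at least 3 of the 6 rats. Genes were called at a Benjamini-Hochberg adjusted p under 0.05. Because of the pseudocount of 1, fold changes of low genes are understated. Groups were also compared by two-sided exact permutation tests (Python 3.11.15, numpy 2.4.6, scipy 1.17.1), and Slc4a4 and Slc5a2 by limma without the filter and by limma voom on recovered reads with at least 30 reads over the 6 rats, the latter chosen after seeing the data. The scripts were tested on simulated data. The 6 genes, the transport lists and the marker lists were chosen with earlier results of these data known. Named genes are the 6, the 3 with the smallest p of each transport list in MI vs. Sham and in DAPA vs. MI, and the 3 most similar profiles. Wnk1, Atp1b2 and Atp1b3 were named outside that rule, and some genes that it names are not reported here. Overlapping genes came from RefSeq (GRCr8), which was used for names and neighbours alone. P-values of the main fits and of the permutation tests rest on the spread between the 6 rats of the comparison.

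Alternatives were a pseudocount of 0.1, no filter, a fit of all 9 rats, a replicate block, each rat left out, the mitochondrial genome left out, rescaling to a sum of 1000000, median-of-ratios scaling, the study's thresholds (unadjusted p under 0.05, log2 fold change beyond 1 in either direction) and limma voom on recovered reads.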

Additional observations from a re-analysis of the deposited data

How the results depend on the processing

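Counts of called sodium transport genes moved by over 1.5 times in these cases. With all values rescaled to a sum of 1000000, 35 were called in MI vs. Sham and 27 in DAPA vs. Sham, where leaving out the filter gave 10 and leaving out 1 rat gave 7 to 15. Leaving out 1 rat gave 14 to 17 in MI vs. Sham and 0 in DAPA vs. MI. The study's thresholds gave 13, 0 and 11 in the 3 comparisons. Over all genes these thresholds called 3024, 273 and 2364, against 5261, 0 and 3822.

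Rescaling to a sum of 1000000 reversed Slc12a2 to 0.10 in MI vs. Sham and to 0.32 in DAPA vs. Sham, and Atp1b1 to -0.10 in DAPA vs. MI, since it raised the median of all genes by 1.3 and 1.00 in the first 2 of these comparisons and lowered it by 0.34 in the last (median log2 fold change -0.34). Relative to the cardiomyocyte markers, Slc5a2 in MI vs. Sham turned to -0.66 with a pseudocount of 0.1, to -0.80 when rescaled to a sum of 1000000, to -0.17 without the mitochondrial genome and to -0.31 without MI replicate 2 (range without 1 rat -0.31 to 0.63). Slc4a4 in DAPA vs. Sham, -0.09 in the main setting, turned to 0.97, 0.23, 0.11 and 0.21 with a pseudocount of 0.1, without the mitochondrial genome, without Sham replicate 1 and without DAPA replicate 2 (range without 1 rat -0.44 to 0.21). The cause was not tested. Of 147 alternative values of the fold changes of the 5 genes above 0 134 kept direction and side of the threshold.

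Deviations of same-numbered rats had correlations of -0.003, -0.008 and 0.07 in MI vs. Sham and 0.03, -0.30 and -0.24 in DAPA vs. MI. In DAPA vs. Sham they were 0.12, 0.19 and -0.003, on average 0.10 beside -0.05 for rats with different numbers. With 3 rats per group these values cannot decide whether the number pairs the rats. Under the replicate block 17, 0 and 14 sodium transport genes were called and no call of Atp1b1, Fxyd1 or Slc12a2 changed. The block was not run for Slc5a2 and Slc4a4, which are below the filter.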
